A study of Mus musculus with 7 samples.

Results

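Cadherins and non-clustered protocadherins were examined as a set of 34 genes among the 19936 genes that had a probe set with a single gene symbol. The set held 3 type I classical cadherins, 12 type II classical cadherins, the lipid-anchored T-cadherin, 4 delta-1 and 5 delta-2 protocadherins, 2 other non-clustered protocadherins, 3 Celsr genes, and 4 genes of the Fat and Dachsous group. For each gene the probe set with the highest mean over all arrays stood for it. All 34 had one, and 33 passed the filter on dim probe sets, a mean log2 signal of at least 6.84. The 1 member below it was Cdh19, a type II cadherin known from glial lineages.

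RNA came from the whole neocortex of C57BL/6 mice, with 4 samples labelled CKO and 3 labelled WT, and 1 Affymetrix array per sample. The CKO genotype is given as COUP-TFI_Nex-Cre and the WT genotype as wild type. Neither the age nor whether the WT samples carried floxed alleles or Cre is stated in the sources used. COUP-TFI is the orphan nuclear receptor encoded by Nr2f1, which patterns the areas of the neocortex. Nex-Cre is a knock-in at Neurod6 that recombines in postmitotic glutamatergic neurons, so interneurons, glia, vessels and dividing progenitors are largely outside its reach. Arrays are named by group and the number in their labels. Values are RMA log2 signals made by the authors, and every difference is CKO minus WT on that log2 scale.

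Classical cadherins bind the same or related cadherins on neighbouring cells in the presence of calcium, and their cytoplasmic tails hold catenins that link them to actin. Type II cadherins and delta-protocadherins are expressed in different combinations in cortical areas and layers. Cdh6 and Cdh8 are 2 type II cadherins used as markers of areas in the young mouse neocortex: Cdh8 labels frontal and motor territory among others, and Cdh6 labels parietal sensory territory. Celsr proteins, with Fat and Dachsous proteins, are very large cadherins of planar cell polarity and tissue growth. RNA of the whole neocortex sums over all areas, so a signal here holds no position, and fewer cells of a type cannot be told apart from less RNA per cell.

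The targeted gene was checked first. Nr2f1 (probe set 10410766) had log2 signals of 10.63, 10.79, 10.60 and 10.70 on CKO 1, 4, 34 and 43, and of 11.08, 11.16 and 10.88 on WT 6, 27 and 38. No CKO array reached the lowest WT array, and the difference was -0.36 (SE 0.0738). Neurod6, the driver locus, differed by -0.20 (SE 0.0567), also without overlap. The limma adjusted p was 0.435 for Nr2f1 and 0.711 for Neurod6, and whether the Nr2f1 probe set lies in the deleted part is not known here.

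The members with the smallest p-values were Cdh6 and Cdh8, with lower means in CKO, and Cdh22, with a higher one. Cdh6 stood at 0.871 of the WT signal, Cdh8 at 0.908 and Cdh22 at 1.14. These 3 were the members with an unadjusted limma p under 0.05, and none of the 33 tested passed an adjusted p of 0.05 over all 16144 genes. Among all genes 0.0248% passed the adjusted threshold. The unadjusted threshold was passed by 6.79% of all genes, 4.17% higher and 2.61% lower in CKO, against 3 of 33 members (9.09%), 1 higher and 2 lower. The members' share is thus near that of all genes. In the fit of all 7 arrays, the 95% interval of each of the 33 differences excluded a change of 1.5-fold in either direction. In the same fit 29 of the 33 excluded a change of 1.3-fold. The 4 whose intervals were wider were Cdh12, Pcdh7, Pcdh9 and Pcdh11x. These bounds belong to that fit and need not hold when an array is left out. Without WT 6, Pcdh9 was at -0.34 (SE 0.123), and without WT 38 at -0.12 (SE 0.0988).

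Cdh6 (probe set 10427862) had log2 signals of 10.13, 10.04, 10.20 and 10.14 on CKO 1, 4, 34 and 43. On WT 6, 27 and 38 it had 10.31, 10.22 and 10.45. All 4 CKO arrays lay below all 3 WT arrays, with CKO 34 and WT 27 nearly touching. Its CKO mean was 10.13 ± 0.0657 (SD, n = 4), against a WT mean of 10.33 ± 0.118 (SD, n = 3). That gives -0.20 (SE 0.0628) with a 95% interval of -0.34 to -0.06. The limma p was 0.0126 before and 0.711 after adjustment over all genes. The two-sided exact permutation p was 0.0286, the smallest that the 35 splits of 7 arrays can give. Cdh6 was highest on WT 38, and without that array the difference was -0.14 (limma p 0.0399).

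Cdh8 (probe set 10580990) had log2 signals of 10.81, 10.87, 10.93 and 10.79 on CKO 1, 4, 34 and 43 and of 10.88, 10.99 and 11.10 on WT 6, 27 and 38. CKO 34 lay above WT 6, so the groups overlapped. Its CKO mean was 10.85 ± 0.0643 (SD, n = 4), against a WT mean of 10.99 ± 0.106 (SD, n = 3). The difference was -0.14 (SE 0.0592), with a 95% interval of -0.27 to -0.003, a limma p of 0.0464 and an adjusted p of 0.726. The exact permutation p was 0.114. Without WT 38, the highest array, the difference was -0.09 (limma p 0.161).

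Neither area-marking cadherin passed the adjusted threshold; their difference from each other was compared within each array. Cdh8 minus Cdh6 was 0.68, 0.82, 0.73 and 0.65 on CKO 1, 4, 34 and 43 and 0.57, 0.77 and 0.64 on WT 6, 27 and 38. These values overlapped, with the lowest and the second highest both among the WT arrays. The groups differed by 0.06 with an exact permutation p of 0.429, so an unequal change of the 2 genes was not detectable with 7 arrays. The sign turned, to -0.013, within CKO 34, CKO 43, WT 27 and WT 38. The identifiers of these 4 arrays in the labels share their leading digits. A fit with that grouping as a fixed block gave the same value by construction, since no other group holds both genotypes.

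Cdh22 (probe set 10489629), a type II cadherin expressed in restricted sets of brain neurons, had 8.63, 8.50, 8.47 and 8.45 on CKO 1, 4, 34 and 43. It had 8.38, 8.32 and 8.28 on WT 6, 27 and 38, so the groups did not overlap. The difference was 0.19 (SE 0.0532) with a 95% interval of 0.06 to 0.31, a limma p of 0.00752 and an adjusted p of 0.711. CKO 1 was the highest array, and without it the difference was 0.15 (limma p 0.0144).

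The array identifiers in the labels fall into 3 groups by their leading digits. CKO 1 and CKO 4 form one, WT 6 stands alone, and the remaining 4 arrays (CKO 34, CKO 43, WT 27 and WT 38) hold both genotypes. What the digits mark is not stated. Within these 4 arrays the difference was -0.17 for Cdh6 (limma p 0.149), -0.18 for Cdh8 (limma p 0.0716), 0.16 for Cdh22 (limma p 0.0222) and -0.24 for Pcdh9 (limma p 0.168).

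**Figure D1:**
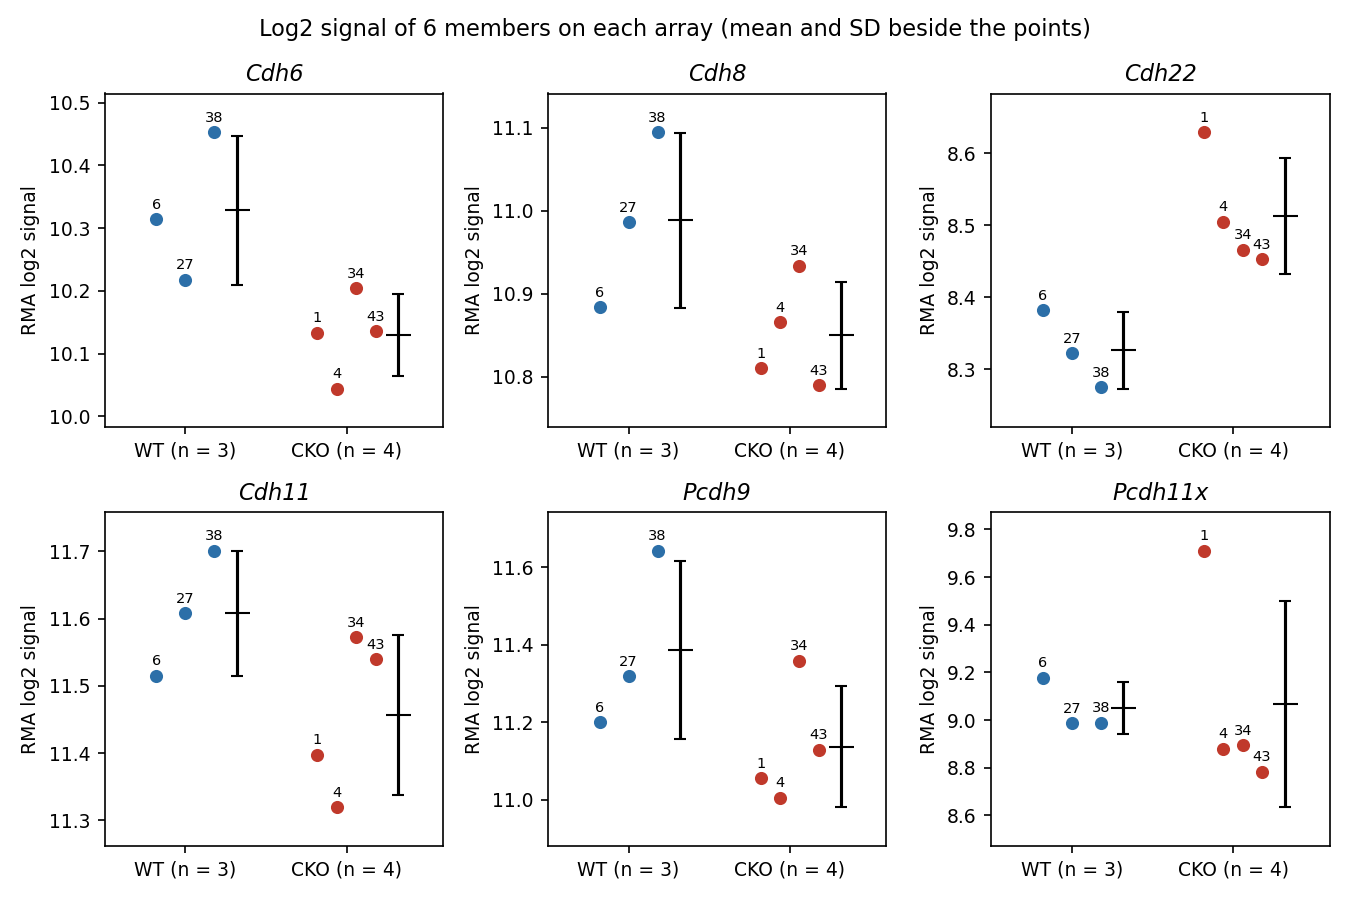
RMA log2 signal (y axis, a different range in each panel) of 6 members on each of the 3 WT and 4 CKO arrays; points are arrays with their label numbers, and the bar beside them gives mean and SD. Cdh6 and Cdh22 show no overlap between groups, and Pcdh11x has 1 high CKO array at 9.71. For Cdh8, Cdh11 and Pcdh9, CKO 34 lies above WT 6. For Cdh11, CKO 43 lies above WT 6 too, and for Pcdh9, CKO 34 also lies above WT 27.

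The groups did not overlap for 4 of the 33 members, 3 higher in CKO (Cdh20, Cdh22 and Celsr2) and 1 lower (Cdh6). Among all genes 8.38% did not overlap, 5.39% higher and 2.99% lower, so the members' share of 12.1% was again close to that of all genes. Differences lay above 0 for 21 of 33 members (63.6%) and for 58.9% of all genes. The median difference was 0.03 over the members and 0.01 over all genes.

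The promoters of Cdh6, Cdh8 and Cdh22 are shown because these 3 members had the smallest p-values, and that of Cdh18 because it held the 1 match to the motif searched. Each is the 250 bases before the gene's start from RefSeq (build GRCm38.p6), 5′ to 3′ on the gene's strand; 24 members matched the promoter table, with 27 promoters. The motif was AGGTCA, the half-site of many nuclear receptors, on both strands (TGACCT on the other), and a match is in capitals. It was present in 14.0% of 32851 promoter windows of the same length and in 1 of the 27 member windows. A match or its lack describes these letters alone. Cdh6 lies at chr15:13173676-13173925 (minus strand), Cdh8 at chr8:99416472-99416721 (minus strand), Cdh22 at chr2:165234738-165234987 (minus strand) and Cdh18 at chr15:23036213-23036462 (plus strand). G and C made up 51.2% of the Cdh6 window, 64.4% of that of Cdh8, 77.6% of that of Cdh22 and 58.0% of that of Cdh18.
Cdh6: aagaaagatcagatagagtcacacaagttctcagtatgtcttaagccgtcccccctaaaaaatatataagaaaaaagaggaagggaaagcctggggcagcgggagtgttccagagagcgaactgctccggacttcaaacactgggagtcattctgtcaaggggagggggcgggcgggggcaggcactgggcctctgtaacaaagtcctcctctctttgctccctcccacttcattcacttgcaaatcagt
Cdh8: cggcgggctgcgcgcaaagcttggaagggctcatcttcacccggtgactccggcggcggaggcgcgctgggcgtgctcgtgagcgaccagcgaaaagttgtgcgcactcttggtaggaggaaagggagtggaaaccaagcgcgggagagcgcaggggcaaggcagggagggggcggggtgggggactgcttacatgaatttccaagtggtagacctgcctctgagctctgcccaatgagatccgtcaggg
Cdh22: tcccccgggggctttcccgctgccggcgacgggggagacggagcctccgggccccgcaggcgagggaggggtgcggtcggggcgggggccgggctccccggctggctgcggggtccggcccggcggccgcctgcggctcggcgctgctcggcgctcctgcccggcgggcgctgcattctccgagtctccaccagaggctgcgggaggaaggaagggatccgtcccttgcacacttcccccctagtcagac
Cdh18: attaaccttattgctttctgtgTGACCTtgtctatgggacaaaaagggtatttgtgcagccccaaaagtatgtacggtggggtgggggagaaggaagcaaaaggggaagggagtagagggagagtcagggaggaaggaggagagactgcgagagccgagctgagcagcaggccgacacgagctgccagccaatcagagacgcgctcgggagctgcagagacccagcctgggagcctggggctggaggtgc

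Of the 11 type II cadherins tested, 8 lay below 0, while 58.9% of all genes lay above 0. The median of the 11 was -0.09 and the range from -0.20 to 0.19. Cdh11, an adhesion molecule of mesenchyme and neurons, was the brightest of them: 11.40, 11.32, 11.57 and 11.54 on CKO 1, 4, 34 and 43 and 11.52, 11.61 and 11.70 on WT 6, 27 and 38. CKO 34 and CKO 43 lay above WT 6, and the difference was -0.15 (SE 0.0726, limma p 0.0701). Without CKO 34 it was -0.19 (limma p 0.0342) and without WT 38 it was -0.10 (limma p 0.224). Cdh12 spread widely within both groups, from 9.37 to 9.90 in CKO and from 9.43 to 9.97 in WT, and differed by -0.08 (SE 0.154).

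The other type II cadherins below 0 had 95% intervals that included 0. Cdh7 averaged 8.34 in CKO and 8.39 in WT (-0.05, SE 0.0476). Cdh9 averaged 7.02 and 7.11 (-0.09, SE 0.0847), and Cdh10 averaged 10.26 and 10.34 (-0.09, SE 0.0713). Cdh24 averaged 9.99 in CKO and 10.08 in WT (-0.09, SE 0.0928), and its dimmer probe set gave -0.01. Cdh18 averaged 7.38 in CKO and 7.34 in WT; it was at 0.05 by this probe set and -0.07 by its dimmer one, so its direction was not settled. Cdh20, a cadherin of the Cdh7 group, had 8.46, 8.56, 8.42 and 8.51 on CKO 1, 4, 34 and 43. On the 3 WT arrays it had 8.41 each, with an SD of 0.00206. The groups did not overlap, yet the difference was 0.08 (SE 0.0426, limma p 0.102, adjusted p 0.739). Cdh19, dim on all arrays, ranged from 4.61 to 4.72 in CKO and from 4.56 to 4.62 in WT; in a fit without the filter it differed by 0.07 (SE 0.0452).

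**Figure D2:**
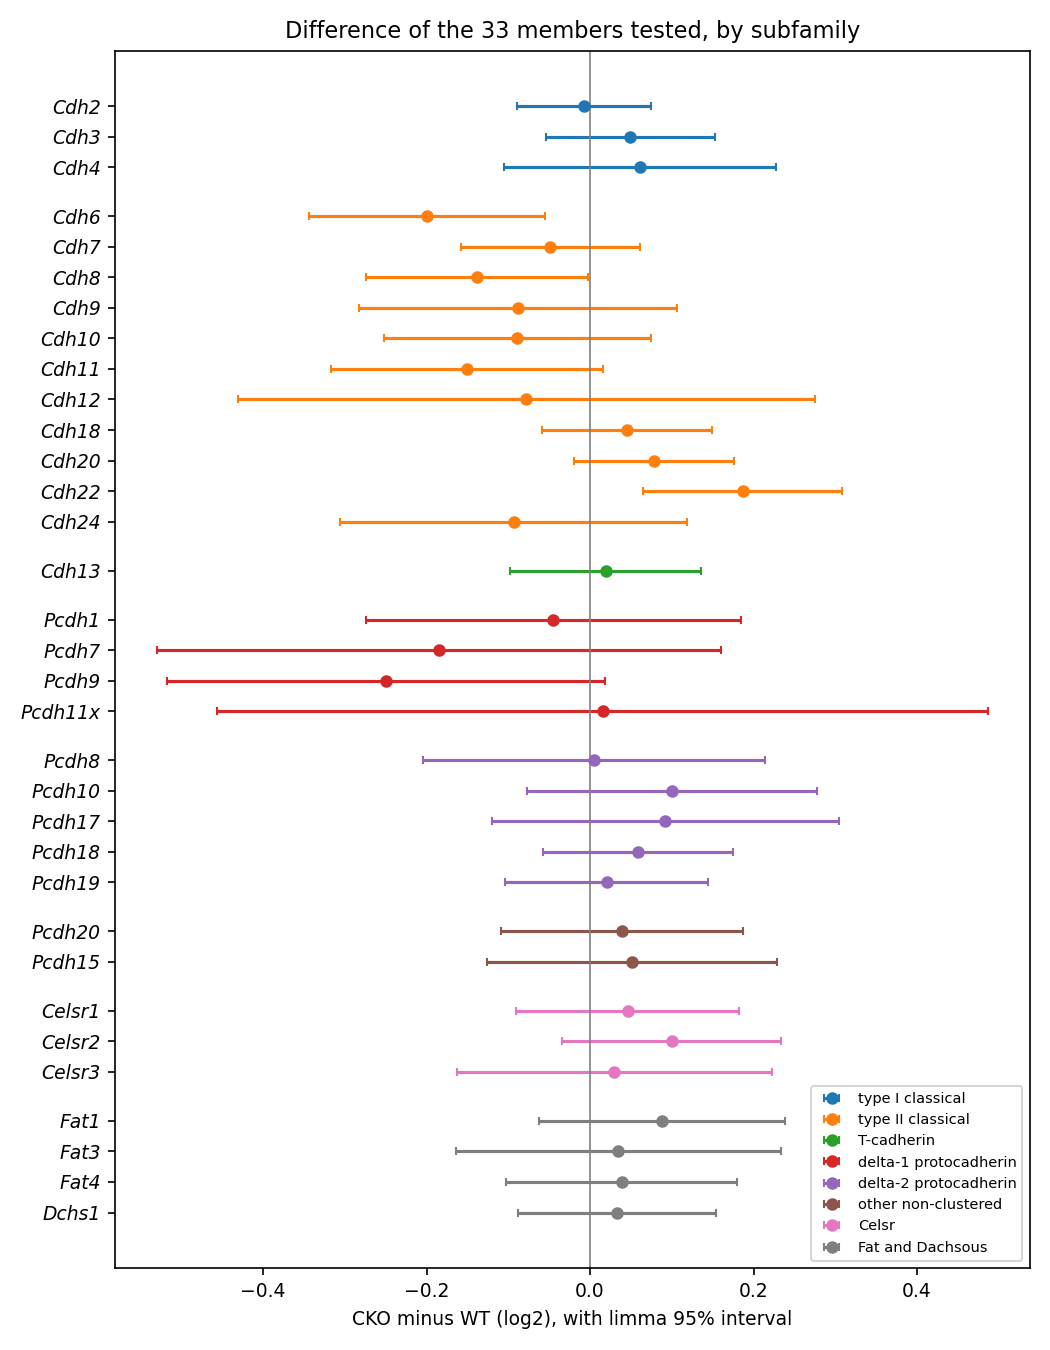
Difference CKO minus WT on the log2 scale (x axis) for the 33 members tested, grouped by subfamily; points are limma estimates and bars their 95% intervals. The intervals of Cdh6, Cdh8 and Cdh22 leave out 0, and those of Pcdh7, Pcdh9, Pcdh11x and Cdh12 are the widest.

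Of the type I cadherins, Cdh2 and Cdh3 varied little. Cdh2, N-cadherin, which holds together radial glia and synapses, had 13.11, 13.10, 13.09 and 13.11 on CKO 1, 4, 34 and 43 and 13.07, 13.11 and 13.15 on WT 6, 27 and 38. Its difference was -0.01 (SE 0.0358), and the 95% interval ran from 0.940 to 1.05 of the WT signal. Cdh3, P-cadherin, averaged 7.27 in CKO and 7.22 in WT (0.05, SE 0.0452). Cdh4, R-cadherin, averaged 11.55 in CKO and 11.49 in WT (0.06, SE 0.0723). Cdh4 was at 11.35 on CKO 43 and at 11.59 to 11.65 on the other CKO arrays. Without CKO 43 its difference was 0.13 (limma p 0.0168, adjusted p 0.835), and within the 4 arrays with shared leading digits it was -0.0094. CKO 43 was also the 1 array low in Y-linked transcripts: Eif2s3y was at 5.16 there and between 10.24 and 10.78 on the other 6. For Cdh4 this array and its Y-linked level cannot be told apart. T-cadherin, Cdh13, which has a lipid anchor and no cytoplasmic tail, had 11.61, 11.62, 11.62 and 11.58 in CKO and 11.58, 11.69 and 11.49 in WT. It differed by 0.02 (SE 0.0511).

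Among the delta-1 protocadherins, Pcdh9 (probe set 10421932) had the largest difference of all members. This gene, expressed in cortical and thalamic neurons, had 11.06, 11.01, 11.36 and 11.13 on CKO 1, 4, 34 and 43 and 11.20, 11.32 and 11.64 on WT 6, 27 and 38. CKO 34 lay above WT 6 and WT 27. The difference was -0.25 (SE 0.117, limma p 0.0636, adjusted p 0.726), and the second probe set gave -0.24. Without WT 38 it was -0.12 (limma p 0.258).

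Pcdh7 had 9.79, 9.76, 10.06 and 9.93 on CKO 1, 4, 34 and 43 and 9.84, 9.90 and 10.48 on WT 6, 27 and 38. Its difference of -0.19 (SE 0.150) rested on WT 38, and turned to 0.02 without it. Pcdh11x, an X-linked protocadherin, was at 9.71 on CKO 1 and at 8.88, 8.89 and 8.78 on CKO 4, 34 and 43. On WT 6, 27 and 38 it was at 9.18, 8.99 and 8.99. Its difference was 0.02 (SE 0.206) over all arrays and -0.20 (limma p 0.0184, adjusted p 0.956) without CKO 1, where no remaining CKO array reached the lowest WT array. Pcdh1 averaged 7.85 in CKO and 7.90 in WT (-0.04, SE 0.0999).

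All 5 delta-2 protocadherins, adhesion proteins whose tails can recruit the WAVE complex of actin assembly, had differences above 0, between 0.005 for Pcdh8 and 0.10 for Pcdh10. None had an unadjusted limma p under 0.05, and 58.9% of all genes had differences above 0. Within the 4 arrays with shared leading digits, Pcdh8 was at -0.10, Pcdh17 at -0.01 and Pcdh19 at -0.06. Pcdh10 at 0.07 and Pcdh18 at 0.02 stayed above 0 there. Pcdh18 was the brightest, with 10.66, 10.74, 10.75 and 10.67 on CKO 1, 4, 34 and 43 and 10.56, 10.73 and 10.64 on WT 6, 27 and 38, a difference of 0.06 (SE 0.0509). Pcdh10, expressed in striatal and cortical neurons, averaged 10.57 in CKO and 10.47 in WT (0.10, SE 0.0773). Pcdh17 averaged 9.81 and 9.72 (0.09, SE 0.0925). The X-linked Pcdh19, an epilepsy gene in humans, averaged 9.98 and 9.95 (0.02, SE 0.0542). Pcdh8 averaged 9.77 in both groups, with a narrow spread in CKO (SD 0.0284) and a wider one in WT (SD 0.224).

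Pcdh20 had 8.62, 8.48, 8.57 and 8.75 in CKO and 8.52, 8.62 and 8.56 in WT, and differed by 0.04 (SE 0.0645). Pcdh15, the tip-link cadherin of hair cells, averaged 8.53 in CKO and 8.48 in WT, and was at 0.05 by its brighter and -0.06 by its dimmer probe set.

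Of the large cadherins, Celsr2, a receptor of planar polarity and ciliary development, had 11.92, 11.93, 11.91 and 11.91 on CKO 1, 4, 34 and 43. It had 11.67, 11.89 and 11.89 on WT 6, 27 and 38. The groups did not overlap, but WT 6 set the size of the difference: 0.10 (SE 0.0586, limma p 0.126) over all arrays and 0.03 without it. Celsr1, of dividing progenitors, averaged 11.75 in CKO and 11.70 in WT (0.05, SE 0.0593). Celsr3, of postmitotic neurons and axon tracts, averaged 11.60 and 11.57 (0.03, SE 0.0842). All 3 Celsr genes had their lowest signal on WT 6.

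Fat4 had 12.44, 12.43, 12.54 and 12.46 on CKO 1, 4, 34 and 43 and 12.38, 12.34 and 12.57 on WT 6, 27 and 38. Fat4, the receptor of Dchs1 in progenitor growth and neuron migration of the embryonic cortex, differed by 0.04 (SE 0.0616). Dchs1 averaged 12.06 in CKO and 12.02 in WT (0.03, SE 0.0528). Fat1 averaged 10.48 and 10.39 (0.09, SE 0.0656), and Fat3 averaged 11.92 and 11.88 (0.03, SE 0.0868). The 15 probe sets of Fat3 ran from -0.11 to 0.12, with 9 above and 6 below 0.

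**Figure D3:**
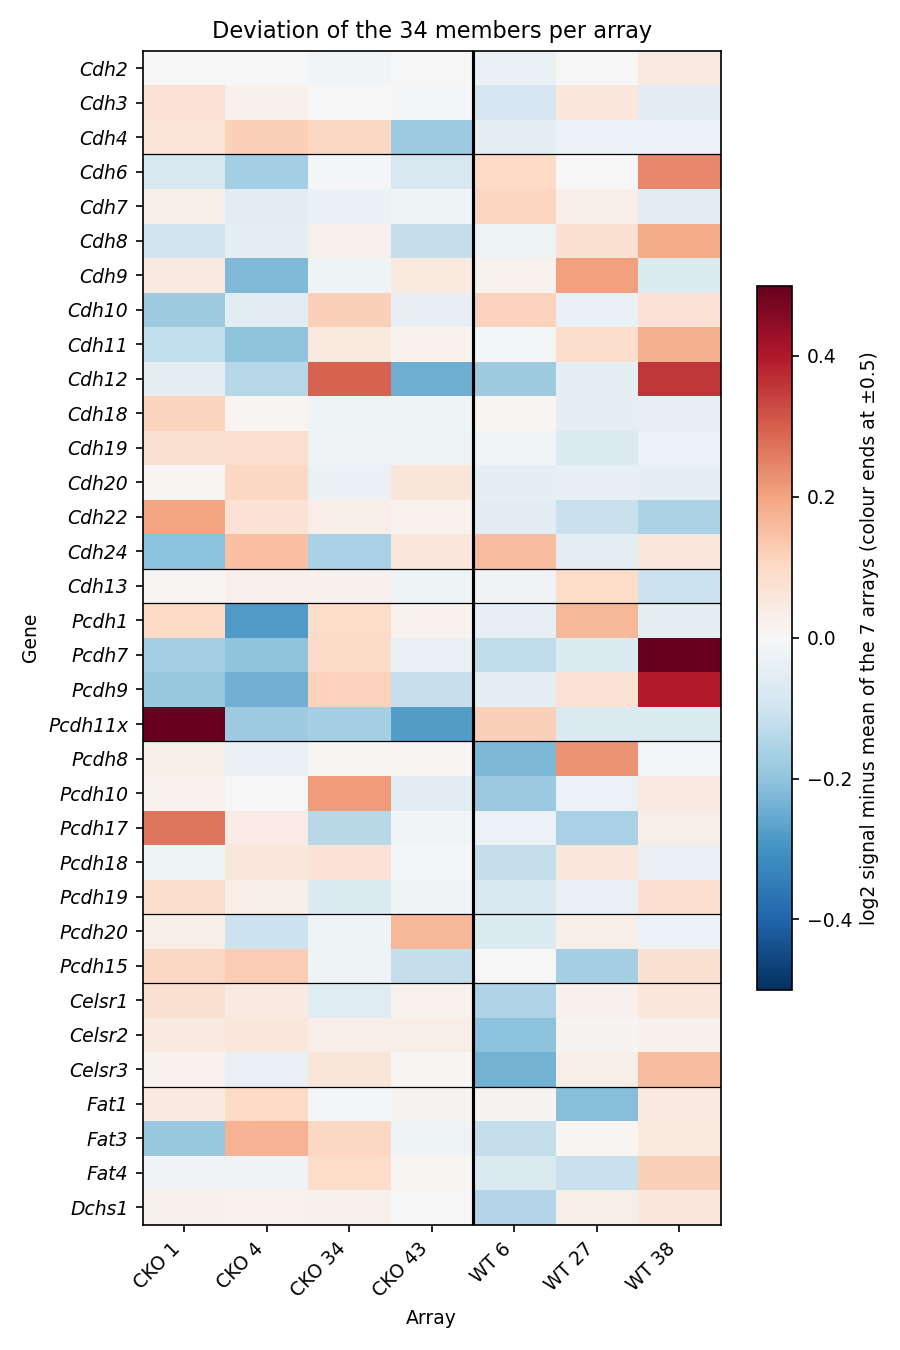
Log2 signal of each of the 34 members (rows, by subfamily) on each array (columns), as the difference from its mean over the 7 arrays; the colour ends at 0.5 in both directions. WT 38 is high for Pcdh7, Pcdh9, Cdh12 and Cdh6, and CKO 1 is high for Pcdh11x.

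The members' highest and lowest signals were spread unequally over the arrays. WT 38 was the highest array for 10 of the 33 members, against 15.7% of all genes, and the lowest for 3, against 30.8%. WT 6 was the lowest for 10, against 21.7% of all genes, and CKO 4 for 8, against 10.4%. In 9 members, a count made after their values were seen, CKO 34 was the highest CKO array and WT 38 the highest WT array. These were Cdh6, Cdh8, Cdh11, Cdh12, Pcdh7, Pcdh9, Pcdh10, Celsr3 and Fat4, or 27.3% of the members, against 5.81% of all genes. On some chromosomes the members lay on one side of 0: all 4 on chromosome 3 and both on chromosomes 2, 9 and X were above 0, and both on chromosome 18 were below. On others they were mixed, and 58.9% of all genes lay above 0. Within the 4 arrays with shared leading digits, Pcdh11x and Pcdh19 on chromosome X turned to -0.15 and -0.06. Celsr3 on chromosome 9 turned to -0.06 and Cdh4 on chromosome 2 to -0.0094. Fat3 on chromosome 9, Cdh22 on chromosome 2 and the members on chromosomes 3 and 18 kept their sign. Of the 6 members on chromosome 15 (Cdh6, Cdh9, Cdh10, Cdh12, Cdh18 and Celsr1), 4 were below 0, and the other two above. Chromosomes 8 and 14 each held 5 members, with 2 of them below 0.

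Markers of other cell types were tallied by list, and no marker in any of them passed an adjusted p of 0.05. Among all genes 58.9% were higher in CKO, and 4.17% were higher and 2.61% lower at an unadjusted p under 0.05. All 9 striatal markers tested had higher means in CKO, 5 of them at an unadjusted p under 0.05, with a median of 0.24, and their mean log2 signal ran from 8.37 to 8.87 on CKO arrays and from 8.11 to 8.34 on WT arrays. The striatal marker Tac1 was below the filter. With a covariate of 5 striatal genes averaged (Six3, Isl1, Ebf1, Penk and Drd2), Cdh6 moved to -0.35 (limma p 0.00217), Cdh8 to -0.17 (limma p 0.119), Cdh22 to 0.20 (limma p 0.0587) and Pcdh9 to -0.47 (limma p 0.0188). In this fit 11.1% of all genes had an unadjusted p under 0.05, against 6.79% without the covariate. The 5 genes belong to the striatal list, whose mean did not overlap between groups. This covariate and genotype are therefore hard to tell apart on 7 arrays. All 9 progenitor markers were higher (median 0.14), 3 at an unadjusted p under 0.05, with means of 11.43 to 11.57 in CKO and 11.30 to 11.45 in WT. All 8 meningeal and choroid plexus markers tested were higher too (median 0.19), 4 at an unadjusted p under 0.05, with means of 8.48 to 8.72 in CKO and 8.33 to 8.52 in WT, and Lum and Aldh1a2 were below the filter. Of 11 neocortical glutamatergic markers tested, among them Tbr1, Fezf2 and Neurod2, 6 were higher and 5 lower; 3 of the higher and 1 of the lower had an unadjusted p under 0.05. Those 3 higher were Bcl11b at 0.15 (SE 0.0401, limma p 0.00495), Tbr1 at 0.14 (SE 0.0571, limma p 0.0346) and Rorb at 0.33 (SE 0.122, limma p 0.0262). The lower was Neurod6 at -0.20 (SE 0.0567, limma p 0.00814). Of 8 interneuron markers 5 were higher and 3 lower, with means of 10.30 to 10.75 in CKO and 10.34 to 10.54 in WT; 2 of the higher and 1 of the lower had an unadjusted p under 0.05. The neuropeptide gene Npy was at -0.51 (SE 0.0644, limma p 3.64e-05, adjusted p 0.1) without overlap between groups, and the interneuron factor gene Dlx5 at 0.39 (SE 0.116, limma p 0.00975, adjusted p 0.711). Thalamic (3 of 4 higher), endothelial and mural (6 of 8) and oligodendrocyte lineage markers (6 of 7 tested) had no member at an unadjusted p under 0.05. The part of these other cells in the members' differences was not tested beyond the covariate.

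The partners of the members were given by lists, and no partner in any of them passed an adjusted p of 0.05. The counts of higher partners stand beside 58.9% of all genes that were higher in CKO. In the cadherin-catenin complex, 10 of 13 genes tested were higher and 3 lower, with a median of 0.02 and none at an unadjusted p under 0.05. The neuronal alpha-catenin gene Ctnna2 was at -0.11 (SE 0.0539) and Ctnna1 at 0.06 (SE 0.0343). Of 13 planar polarity partners of Celsr, 11 were higher and 2 lower, with a median of 0.06 and a range from -0.04 to 0.13. The 2 with the smallest p-values were Vangl2 at 0.12 (SE 0.0559) and Ptk7 at 0.10 (SE 0.0651).

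Of 9 partners of delta-protocadherins tested, 5 were higher and 4 lower; Nckap1, a WAVE complex subunit, was at 0.17 (SE 0.0576, limma p 0.0178) and Abi1 at 0.07 (SE 0.0358). Among 9 partners of Fat and Dachsous, 7 were higher, with Tead2 at 0.15 (SE 0.0851) and Yap1 at 0.10 (SE 0.0559). Of 16 other genes of the cadherin superfamily tested, 11 were higher and 5 lower. Cdh23, the other tip-link cadherin, was at 0.28 (SE 0.0807, limma p 0.00766), and Cdh1, E-cadherin, at 0.12 (SE 0.0471, limma p 0.0381).

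Of 22 clustered protocadherins with a probe set of their own symbol, 18 were lower and 4 higher, with a median of -0.05, and 1 higher and 2 lower had an unadjusted p under 0.05. Of all genes 58.9% were higher, and 4.17% were higher and 2.61% lower at that threshold. Pcdhb22 was at -0.21 (SE 0.0891) and Pcdhb6 at -0.14 (SE 0.0600). These genes are closely similar copies whose probes can bind each other's transcripts, so their values are uncertain. Among 10 other area markers tested, 4 were higher and 6 lower, with 2 higher and 2 lower at an unadjusted p under 0.05. The smallest p-values were those of Tenm3 and Etv5. The teneurin gene Tenm3, a marker of caudal sensory cortex, was at -0.48 (SE 0.0844, adjusted p 0.301). The ETS factor gene Etv5, a rostral marker, was at 0.32 (SE 0.0616, adjusted p 0.354). Rorb had the highest difference of the list, 0.33 (SE 0.122, limma p 0.0262, adjusted p 0.722). Its groups did not overlap, but CKO 43 at 10.549 and WT 38 at 10.548 nearly touched.

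**Figure D4:**
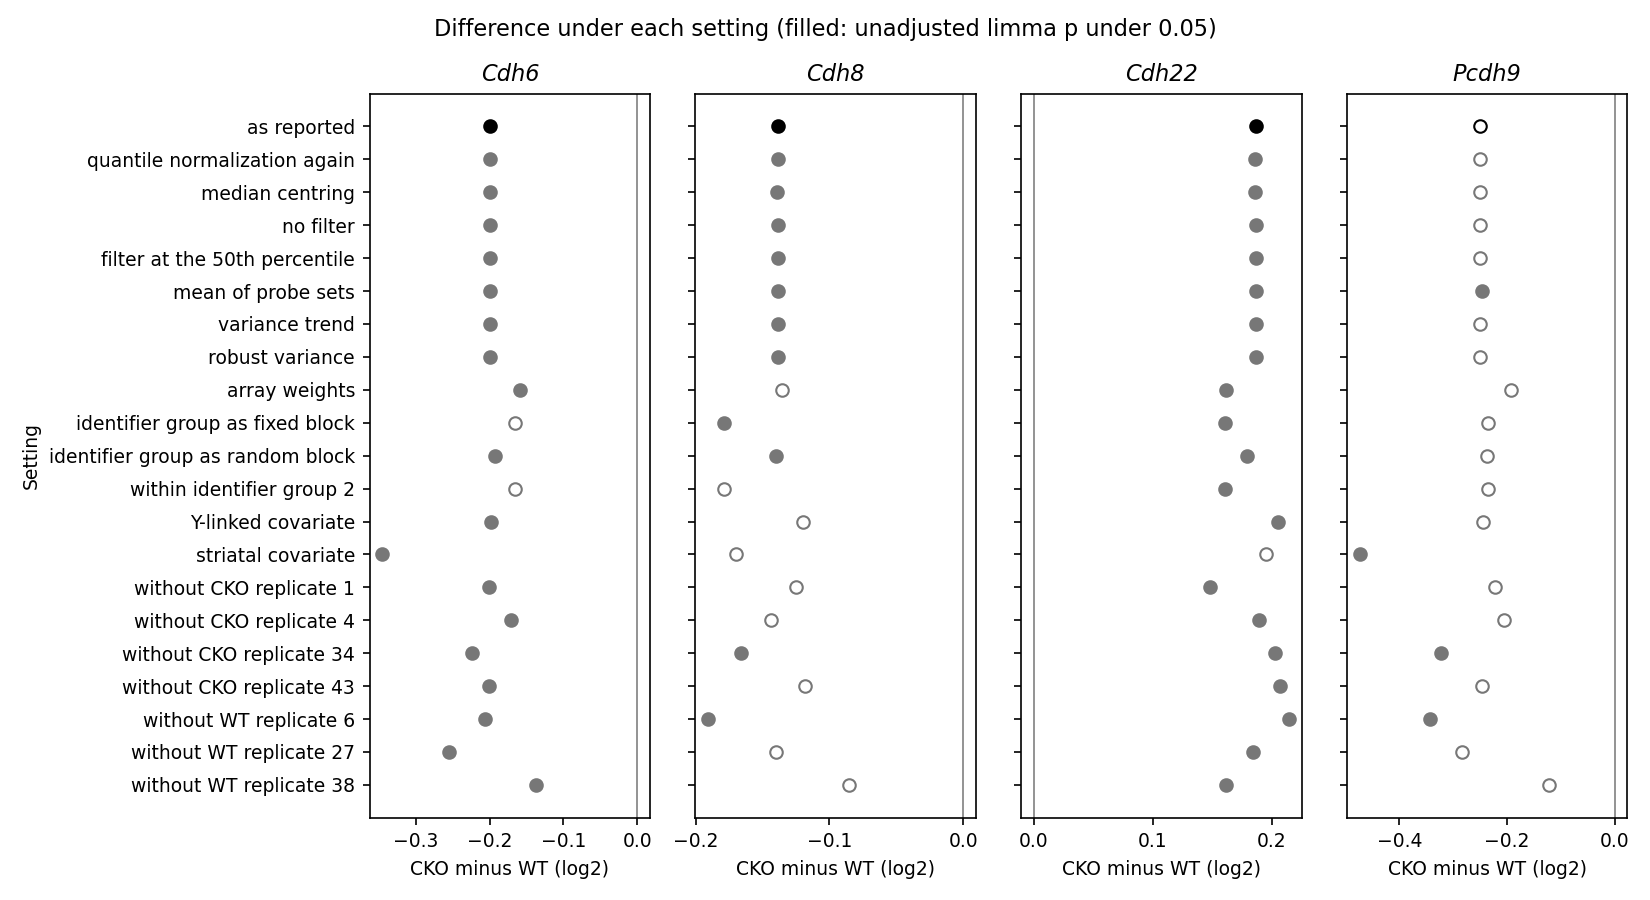
Difference CKO minus WT (x axis, log2, a different range in each panel) of Cdh6, Cdh8, Cdh22 and Pcdh9 under each setting (y axis); filled points have an unadjusted limma p under 0.05. The direction of the 4 genes is the same in each of the 20 alternatives, several of which leave the difference unchanged. Leaving out WT 38 brings Cdh6, Cdh8 and Pcdh9 nearest to 0.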

How the data were processed

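The deposited values are log2 signals. According to the submitters' processing notes the authors made them by RMA with Affymetrix Expression Console; its version and the genome build are not stated in the sources used. Of 35468 probe sets, 21786 carried a single gene symbol in the platform annotation, 1621 carried several and 12061 none; probe sets of the latter kinds were named nowhere. Each gene was represented by its brightest probe set, and a mean below the 25th percentile removed it from testing, which left 16144 genes. The 4 CKO and 3 WT arrays were fitted in R 4.3.3 with limma 3.58.1 without covariates (5 residual, 3.28 prior degrees of freedom), and p-values were adjusted by Benjamini-Hochberg at 0.05 over all genes. Intervals are 95% intervals of that fit. Exact permutation tests over the 35 splits were run for Cdh6, Cdh8 and their difference.

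Values on every array are given, by rule, for Cdh6, Cdh8, members with an unadjusted p under 0.05, members without overlap between groups, members at an absolute difference of at least 0.2 and the brightest of each subfamily. From each partner list the rule took the 2 smallest p-values. Pcdh7, Pcdh11x and Cdh4 were given in more detail after their values were seen. Members and lists were chosen with earlier results of these data known. Signals of different probe sets are not compared as amounts. RNA integrity was 10 and input 0.2 µg throughout. Separate animals are not stated in the labels, and p-values then reflect only how far these samples spread, possibly for technical reasons. The number of arrays limits the precision. The fit was tested on simulated data. Alternatives were other normalizations, filters, variance models, covariates, array identifier groups and leaving out each array.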

Additional observations from a re-analysis of the deposited data

Results flagged for a closer look

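With 4 CKO arrays per gene, 2 of the 34 members had 1 array set far from the other 3 (a gap above 0.829 of the range); chance gives about 1 in 20 genes. Pcdh11x was at 9.71 on CKO 1 and between 8.78 and 8.89 on the other CKO arrays, a gap of 0.88 of the range. Dchs1 was at 12.04 on CKO 43 and at 12.06 on the other 3, a gap of 0.922 of a range far smaller than the spread of the WT arrays.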

How the results depend on the processing

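No paired analysis was possible because the numbers in the labels are shared by no samples of different groups. Under 20 alternatives each, Cdh6 stayed between -0.35 and -0.14, Cdh8 between -0.19 and -0.09 and Cdh22 between 0.15 and 0.21, and no adjusted p passed 0.05. The unadjusted p was under 0.05 in 18 alternatives for Cdh6, 11 for Cdh8 and 19 for Cdh22. These are not counts of separate checks. Other filters, the variance trend and the robust variance change the standard error and p of a gene, not its difference. Each of these genes has 1 probe set, so averaging of probe sets left its difference unchanged too. Within the 4 arrays with shared leading digits, Cdh6 was at -0.17, Cdh8 at -0.18 and the difference between both genes turned to -0.013. The digits as a fixed block gave the same differences by construction, since no other group of arrays holds both genotypes. The limma p of Cdh6 was 0.149 within the 4 arrays and 0.11 with the block. The cause of the turn was not tested. Within those 4 arrays 1 of the 33 members, Cdh22, had an unadjusted p under 0.05, against 3.01% of all genes. When single arrays were left out, this count ran from 2 to 6. It was 6 without CKO 34 and 5 without WT 6, against 6.93% and 6.58% of all genes. Over these fits the share of all genes ran from 3.82% (without CKO 4) to 10.9% (without WT 38). The count past the adjusted threshold was 0 in each case, and Cdh8 minus Cdh6 ran from 0.02 to 0.11. The Y-linked covariate used 3 genes, as Ddx3y had no probe set of its own symbol. Other members near 0 changed sign under some alternatives, Pcdh8 and Pcdh11x most often.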
